A study of Mus musculus with 30 samples.

Results

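Between day 2 and day 5 after cyclophosphamide, many transcripts of mature neutrophils (12 of 26 tested) and some interferon-stimulated ones (8 of 27) fell in the blood leukocytes of mice. Some of monocytes (9 of 27), some on a joint list for eosinophils, basophils and mast cells (5 of 12), and that of the heme enzyme Alas2, rose. Of all tested features, 12.0% were lower and 12.1% higher at day 5. The comparison set 3 blood samples drawn at day 5 against 4 drawn at day 2, chosen by their titles, out of 15 samples in the series. Each sample had 2 technical replicates, which were averaged, so that 14 of the 30 columns entered the comparison. Genes were kept where at least 2 of the 3 day 5 samples and at least 3 of the 4 day 2 samples had a value. This held for 6813 of 13027 features, where a feature is a gene symbol or, for an unnamed probe, the probe. Of the 6813, 4957 had a gene symbol.

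All mice were of the inbred strain DBA/2. Day 2 and day 5 mice had received 83 mg per kg cyclophosphamide by injection into the peritoneum, and 4 further samples came from untreated mice and 4 from mice bled at day 1 after the same dose. Amplified RNA of the blood leukocytes was labelled with Cy5 and a bone marrow reference with Cy3, so every value is a log ratio of blood over marrow. Blood had the same dye throughout, so the sign of a gene's ratio was not read as a difference between blood and marrow. The reference is described as a pool of marrow from untreated mice in its cell type label and as marrow of treated mice in its treatment label, and a reference that is the same in all columns drops out of a difference between groups. The samples are labelled as independently harvested. Age, sex and the number of mice behind a sample were not given in the sources used here, so p-values measure the spread between these samples. The base of the logarithm was not stated either. It was taken as 2, and every log2 value and fold here rests on that. In whole blood leukocytes, fewer cells of a type and less RNA per cell cannot be told apart.

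Cyclophosphamide is an alkylating drug that is activated in the liver and damages the DNA of dividing cells, including the precursors of blood cells in the marrow. Neutrophils are short-lived and are released from a marrow store, monocytes are replaced from dividing precursors, and basophils and mast cell precursors are rare in blood. Alas2 is the first enzyme of heme synthesis in red cell precursors, and young red cells in blood can carry their RNA into leukocyte preparations.

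Each column held values for 5314 to 8538 of 13443 probes (39.5% to 63.5%) in the 7 samples, the fewest in day 2 replicate 1. Technical replicates correlated across probes with r up to 0.957 and above 0.8 in each sample. Across features, the median correlation was 0.775 between day 2 samples, 0.772 between day 5 samples and 0.456 between a day 2 and a day 5 sample. Day 5 samples had a median correlation of 0.70 with untreated samples and day 2 samples one of 0.574. Of the markers of leukocytes at large, Cd53 had ratios above 1 in every day 2 and day 5 sample. Ptprc, which encodes CD45, had a value in 1 day 2 and 2 day 5 samples, and Cd3e, Cd79b and Ccr2, markers of T cells, B cells and monocytes, had none in these 7 samples. No label gives the reason for an empty value, and an empty value says nothing about a level.

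Of the 6813 features, 1642 were called, meaning that day 5 and day 2 differed at an adjusted p under 0.05 in limma, 24.1% of those tested. Changes are day 5 minus day 2 on the log2 scale, and since each column is centred near 0 they show unequal change among genes. At day 5, 827 were higher, 12.1% of the tested features, and 815 were lower, 12.0%. The day 5 and day 2 samples did not overlap in 1475 of the 1642 (89.8%), against 2035 of all 6813 tested. A call favours features without overlap, so the higher share among called features adds no support. The median change over all tested features was -0.06 on the log2 scale. Large changes were mostly rises. A change of at least 1 log2 unit was seen in 269 called features that were higher and 93 that were lower, and one of at least 2 units in 50 and 14. The count fell to 921 called features, 534 higher and 387 lower, when the spread was estimated from the 7 samples alone.

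**Figure D1:**
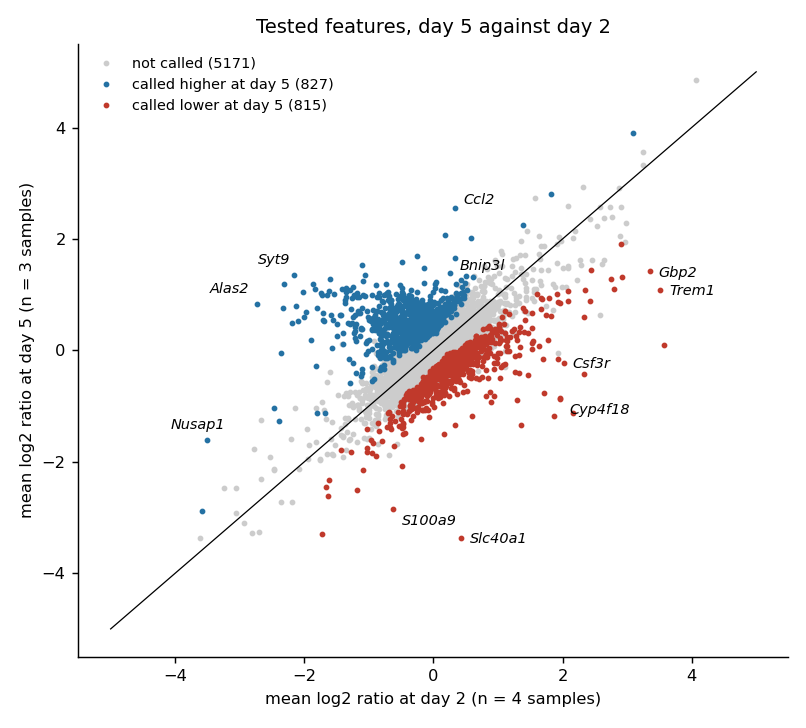
Mean log2 ratio of blood over marrow at day 5 (vertical axis, 3 samples) against day 2 (horizontal axis, 4 samples), 1 point per tested feature, with the line of equal values. The 827 features called higher at day 5 lie above the line and the 815 called lower below it, with Slc40a1, Csf3r and Trem1 far below and Alas2 and Syt9 far above.

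Transcripts of mature neutrophils were lower at day 5. Of 26 tested members of the mature neutrophil list, 12 fell (46.2%, against 12.0% of all features) and 0 rose in limma, and the median change was -0.72 against -0.06 over all features. At an unadjusted p under 0.05, 17 members were lower and 0 higher. At that threshold 2479 of all 6813 features passed in either direction. Csf3r (gene 12986) encodes the receptor for G-CSF, the growth factor that drives neutrophil production and release. Its log2 ratios at day 2 were 2.24, 2.00, 1.34 and 2.47 in replicates 1 to 4, and at day 5 they were -0.18, -0.09 and -0.40. All day 2 samples lay more than a unit above zero and all day 5 samples just below it, with no overlap. The change was -2.24 ± 0.23 (SE), a 4.71-fold lower ratio, with an adjusted p = 8.77e-06.

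Trem1 (gene 58217), an activating receptor of neutrophils and monocytes, had log2 ratios of 3.14, 3.88, 2.83 and 4.20 at day 2 and of 1.07, 0.71 and 1.5 at day 5. The groups were well apart, and the ratio stayed positive in every sample. The change was -2.42 ± 0.30 (SE, adjusted p = 3.85e-05). S100a9 (gene 20202) encodes a calcium-binding protein that makes up much of the neutrophil cytosol. It had ratios of -0.59, -0.48, -1.02 and -0.41 at day 2 and of -3.83, -2.78 and -1.91 at day 5. The day 5 samples were spread over a wide range, and all were lower than every day 2 sample. Its change was -2.22 ± 0.40 (SE, adjusted p = 0.000939). The partner gene S100a8 had a value in 1 of the 7 samples and was not tested.

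Il1rn (gene 16181), the antagonist of the interleukin 1 receptor, had log2 ratios of 1.23, 2.08, 1.45 and 2.10 at day 2 and of -1.24, -0.41 and -0.65 at day 5. Its sign turned, with positive ratios at day 2 and negative ones at day 5. The change was -2.48 ± 0.27 (SE, adjusted p = 1.4e-05). Chil1, a chitinase-like protein, fell by 1.58 on the log2 scale (adjusted p = 9e-05), and the chemokine receptor Cxcr4, which retains neutrophils in the marrow, fell by 1.03 (adjusted p = 0.00135). Both Cxcr4 probes were lower, by a change of -0.87 and of -1.19. Lrg1, a glycoprotein of neutrophil granules, fell by 1.65, but its samples overlapped. Its call ended in 3 of 26 alternatives, among them those without day 5 replicate 1 or 3 (adjusted p = 0.0517 and 0.069). Mmp9, the gelatinase of neutrophil granules, was not called, with a change of -0.58 (adjusted p = 0.116), and was called without day 2 replicate 3 (adjusted p = 0.0241).

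The neutrophil falls were set beside the level before the drug, measured in the untreated samples. Csf3r was 1.56 above untreated at day 2 (adjusted p = 0.000175) and 0.68 below it at day 5 (day 5 minus untreated -0.68, adjusted p = 0.169). Trem1 had differences from untreated of 1.51 at day 2 (adjusted p = 0.00188) and -0.90 at day 5 (adjusted p = 0.159). S100a9 had differences of 1.71 (adjusted p = 0.00641) and -0.50 (adjusted p = 0.552), and Chil1 of 1.56 (adjusted p = 0.00012) and -0.02 (adjusted p = 0.977). Each pair shares the untreated samples. Over all features, 12.6% of 6555 were called between day 2 and untreated and 1.08% between day 5 and untreated.

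Genes of neutrophil precursors were mixed. Of 19 tested members of the neutrophil precursor granule list, 2 rose (Ctsc and Plac8) and 1 fell (Hp), with a median change of 0.24. These shares, 10.5% and 5.26%, were below the 12.1% and 12.0% of all features. Ctsc (gene 13032), the protease that activates granule serine proteases and that monocytes and other cells also make, had log2 ratios of -0.52, -1.10, -0.41 and -0.02 at day 2 and of 0.27, 1.08 and 2.16 at day 5. It rose by 1.68 ± 0.35 (SE, adjusted p = 0.00268). Prtn3, the granule protease proteinase 3, was not called, with a change of 0.77 (adjusted p = 0.209), and was called without day 2 replicate 1 (adjusted p = 0.0436). Mpo, Elane and Camp had too few values to be tested. Plac8 lost its call in 9 of 26 alternatives, with adjusted p up to 0.198. These included the runs without day 2 replicate 1, 3 or 4 or day 5 replicate 2. Hp lost its call in 4 of 26, among them those without day 5 replicate 1 or 3 (adjusted p = 0.0984 and 0.0595).

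**Figure D2:**
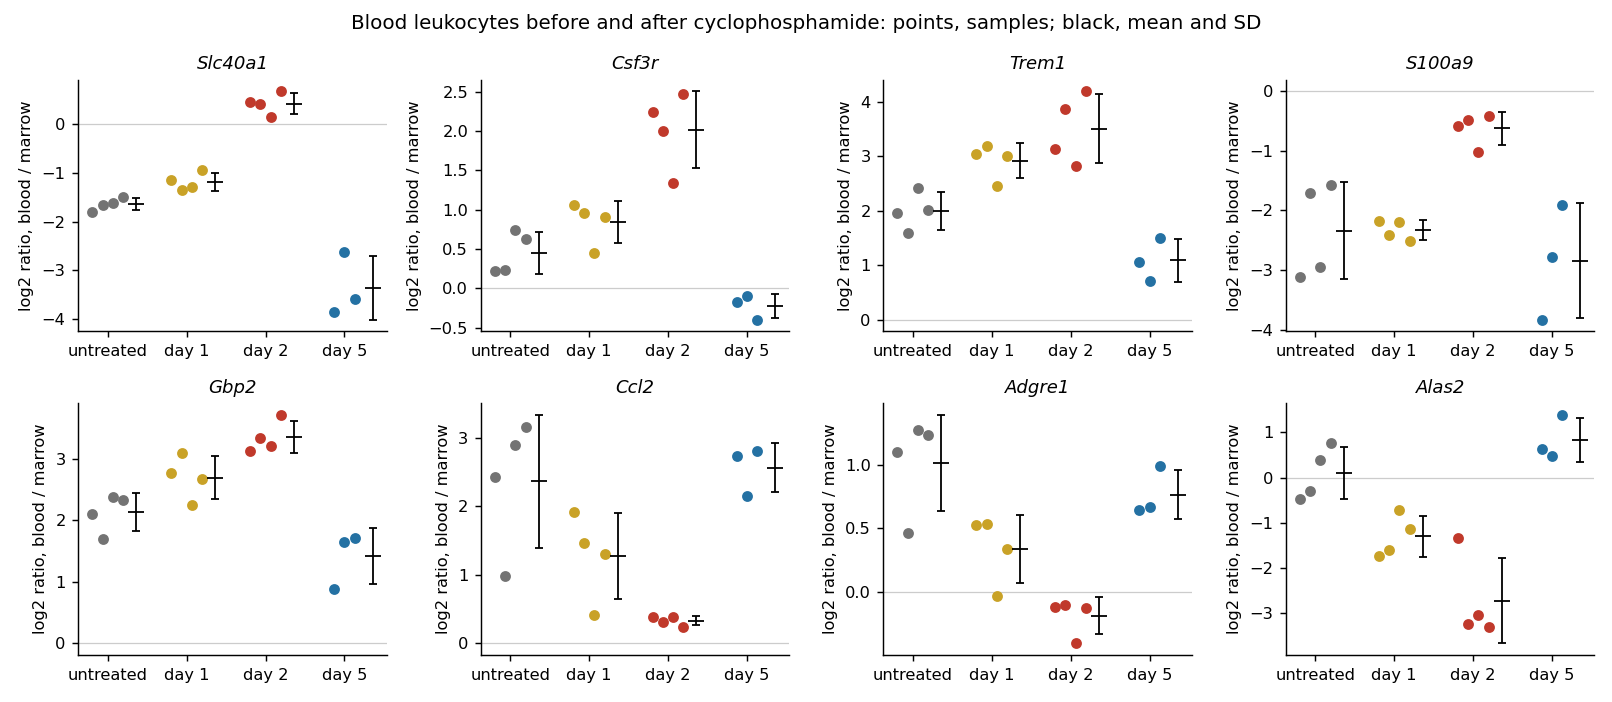
Log2 ratio of blood over marrow (vertical axis) of 8 genes in untreated, day 1, day 2 and day 5 samples, 1 point per sample, with the mean and SD in black beside each group. Slc40a1, Csf3r, Trem1, S100a9 and Gbp2 are highest at day 2 and lowest at day 5, and Ccl2, Adgre1 and Alas2 are lowest at day 2, with no overlap of day 2 and day 5 in any of the 8.

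The largest fall was that of Slc40a1 (gene 53945), which encodes ferroportin, the iron exporter of macrophages and of red cell precursors. Its log2 ratios were 0.46, 0.42, 0.16 and 0.69 at day 2 and -3.87, -2.62 and -3.60 at day 5. The ratios were small and positive at day 2 and strongly negative at day 5. The change was -3.79 ± 0.22 (SE), a 13.9-fold lower ratio (adjusted p = 8.53e-08). Slc40a1 lay on both sides of the untreated level: it was 2.07 above untreated at day 2 (adjusted p = 3.8e-05), and its day 5 minus untreated difference was -1.73 (adjusted p = 9e-04). The untreated samples lay between -1.79 and -1.49, below all day 2 and above all day 5 samples.

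Further large falls included genes known from myeloid cells. Slfn4 (gene 20558), a Schlafen family gene of myeloid cells, had log2 ratios of 2.80, -0.35, 2.43 and 2.58 at day 2 and of -0.55, -1.58 and -1.40 at day 5. Day 2 replicate 2 lay close to the day 5 samples, apart from the other day 2 samples. Slfn4 fell by 3.04 on the log2 scale (SE 0.61, adjusted p = 0.00189).

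Cyp4f18 (gene 72054), a cytochrome P450 that inactivates leukotriene B4, the neutrophil attractant, had log2 ratios of 2.16, 2.03, 1.64 and 2.05 at day 2 and of -1.06, -0.64 and -0.86 at day 5. Both groups were tight and lay on opposite sides of zero. The change was -2.82 ± 0.19 (SE, adjusted p = 2.32e-07). Its day 5 minus untreated difference was -1.5 (adjusted p = 0.000839), beside a day 2 minus untreated difference of 1.32 (adjusted p = 0.000141). Jdp2, a transcription factor that binds AP-1 sites, fell by 2.19, Dgat2, an enzyme of triglyceride synthesis, by 1.85, and the lectin-like receptor Klra17 by 1.83 (adjusted p = 1.93e-06, 5.8e-06 and 9.8e-06).

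Interferon-stimulated genes made up a further group of falls. Of 27 tested members, 8 fell (29.6%, against 12.0% of all features) and 1 rose, and the list's median change was -0.30. Without day 2 replicate 4 the count of falls was 5, and 757 of the 5248 features tested in that run were lower. Members left with fewer than 3 day 2 values went untested in such a run. Counts over all features in the runs without a sample are given with the dependence on processing. The medians of the list overlapped between the groups, at 0.12 to 0.53 in the day 2 samples and -0.09 to 0.20 in the day 5 samples. The neutrophil list fell in the same samples, and its part in these falls was not tested. Gbp2 (gene 14469), an interferon-induced GTPase, had log2 ratios of 3.13, 3.34, 3.21 and 3.71 at day 2 and of 0.89, 1.65 and 1.71 at day 5. Every day 2 sample was above 3 and every day 5 sample below 2. The change was -1.93 ± 0.23 (SE, adjusted p = 3.2e-05).

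Rtp4 (gene 67775), an interferon-induced chaperone of receptors, had log2 ratios of 1.38, 1.00, 1.56 and 1.89 at day 2 and of -0.66, -0.40 and -0.25 at day 5. Its change was -1.89 ± 0.25 (SE, adjusted p = 5.77e-05). Ifi27l2a (gene 76933), an interferon-induced membrane protein, had ratios of 1.82, 1.52, 1.70 and 1.53 at day 2 and of 0.02, 0.35 and -0.14 at day 5, a change of -1.57 ± 0.16 (SE, adjusted p = 8.77e-06). In both genes the groups did not overlap, and day 2 was not called against untreated: the day 2 minus untreated differences were 0.36 for Rtp4 (adjusted p = 0.345) and 0.34 for Ifi27l2a (adjusted p = 0.156). The day 5 minus untreated differences were -1.54 (adjusted p = 0.00468) and -1.23 (adjusted p = 0.000941).

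The interferon signalling factor Irf9 fell by 0.91 and the GTPase Iigp1 by 0.67 (adjusted p = 0.00147 and 0.000533). Socs1, the feedback inhibitor of cytokine signalling, fell by 0.52 (adjusted p = 0.0311), and the call was lost in 10 of 26 alternatives, with adjusted p up to 0.111. Among these, leaving out day 2 replicate 4, day 5 replicate 1 and day 5 replicate 2 gave 0.0619, 0.058 and 0.107. The exception on this list was Ifih1, the sensor of double-stranded RNA also called MDA5, which rose by 0.96 (adjusted p = 0.0119). It was not called when the 7 samples alone were fitted (adjusted p = 0.0646). Ube2l6, also interferon-induced, rose too but is on the erythroid list and not on this one, so the tally depends on list membership. Ifit1, Isg15, Mx1, Rsad2 and Irf7, the usual marker genes of this response, had too few values to be tested.

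Promoters were searched for known motifs, and those of Gbp2 and Socs1, which fell, and of Alas2, which rose, are printed to show the sequence. Windows are the 250 bases before the start of a gene in RefSeq, build GRCm38.p6. Capitals mark the interferon response element, searched as GAAA, any 2 bases and GAAA, in Gbp2 (forward strand of chromosome 3, 142620413 to 142620662) and Socs1 (reverse strand of chromosome 16, 10785537 to 10785786), and AGATAA, the motif bound by GATA factors, in Alas2 (forward strand of chromosome X, 150547167 to 150547416), each searched on both strands.
Gbp2: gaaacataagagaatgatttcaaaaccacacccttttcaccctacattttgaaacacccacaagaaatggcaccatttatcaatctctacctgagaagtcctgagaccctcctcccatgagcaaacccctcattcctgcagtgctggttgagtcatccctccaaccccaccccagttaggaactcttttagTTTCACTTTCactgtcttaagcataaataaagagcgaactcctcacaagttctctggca
Socs1: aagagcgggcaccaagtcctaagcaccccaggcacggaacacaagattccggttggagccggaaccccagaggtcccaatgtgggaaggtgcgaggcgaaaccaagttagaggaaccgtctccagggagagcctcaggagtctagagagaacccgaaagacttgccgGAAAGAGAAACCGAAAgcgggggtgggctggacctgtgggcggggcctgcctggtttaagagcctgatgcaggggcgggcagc
Alas2: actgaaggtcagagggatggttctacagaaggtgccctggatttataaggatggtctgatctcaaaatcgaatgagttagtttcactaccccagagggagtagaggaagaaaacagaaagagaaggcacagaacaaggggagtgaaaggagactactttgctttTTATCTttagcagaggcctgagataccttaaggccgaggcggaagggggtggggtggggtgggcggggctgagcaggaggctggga

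In Gbp2 the element starts 59 bases before the gene's start and lies on the opposite strand, and in Socs1 a pair of elements overlap, starting 83 and 77 bases before it. In Alas2 the GATA motif begins 86 bases before the start, also on the opposite strand. Of the 8 interferon-stimulated falls, 5 had a window and 2 of these held the interferon element, Gbp2 and Socs1. The element was in 138 of 3996 tested genes with a window (3.45%), in 21 of 492 called lower (4.27%) and in 17 of 483 called higher (3.52%). AGATAA was in 1 of 5 erythroid rises with a window, Alas2, and as well in 2 of 5 interferon-stimulated falls (Irf9 and Sp110, a nuclear body protein whose call was lost in 10 of 26 alternatives), in 2 of 6 monocyte rises (Mpeg1 and Psap) and in 3 of 11 of the largest rises (Alas2, Anxa4 and Daw1). It was in 54 of 483 genes called higher (11.2%), in 38 of 492 called lower (7.72%) and in 358 of 3996 tested (8.96%). A pair of further motifs was searched: TTCNNNGAA, the gamma-activated site, was in 2 of 10 neutrophil falls with a window, Fpr2 and Trem1, and in 7.58% of tested genes. GAGGAAGT, a site of the myeloid factor PU.1, was in 0 of these 10 and in 2.58% of tested genes. A match is a description of the letters in the window, and these sets hold few genes.

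Transcripts of monocytes and macrophages were higher at day 5. Of 27 tested list members, 9 rose (33.3%, against 12.1% of all features) and 1 fell, with a median change of 0.33. The count of rises was 5 without day 2 replicate 1, without day 5 replicate 1 and without day 5 replicate 2. Ccl2 (gene 20296), the chemokine that attracts monocytes, had log2 ratios of 0.39, 0.31, 0.38 and 0.24 at day 2 and of 2.74, 2.15 and 2.80 at day 5. The day 2 samples were nearly identical, and the day 5 samples lay far above them. Ccl2 rose by 2.23 ± 0.41 (SE, adjusted p = 0.001), 4.70-fold. Its untreated samples were widely spread, from 0.98 to 3.15.

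Ms4a6c (gene 73656), a membrane protein of monocytes, had log2 ratios of -0.13, -0.43, -0.40 and -0.35 at day 2 and of 1.05, 0.51 and 1.15 at day 5. It rose by 1.23 ± 0.20 (SE, adjusted p = 0.000285). Adgre1 (gene 13733), the F4/80 antigen of macrophages, had ratios of -0.11, -0.10, -0.40 and -0.12 at day 2 and of 0.64, 0.66 and 0.99 at day 5, and rose by 0.95 ± 0.19 (SE, adjusted p = 0.00197). In both, the ratios were negative in all day 2 samples and positive in all day 5 samples.

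Psap, the precursor of the lysosomal saposins, rose by 1.23, and F13a1, a coagulation factor chain made by monocytes and platelets, by 1.19 (adjusted p = 0.00361 and 0.000566). The perforin-like Mpeg1 rose by 0.53 (adjusted p = 0.0348), and its call ended in 8 of 26 alternatives. Among these, leaving out day 2 replicate 1, 2 or 3 or day 5 replicate 1 or 2 gave adjusted p from 0.0514 to 0.123. Cx3cr1, the fractalkine receptor of patrolling monocytes, was not called, with a change of 0.51 (adjusted p = 0.107). The member that fell was Csf2ra, a chain of the GM-CSF receptor that neutrophils carry too, by 0.49 (adjusted p = 0.0248). It was not called in 4 of 26 alternatives, among them those without day 2 replicate 1 or day 5 replicate 2.

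Against untreated, Ms4a6c, Adgre1 and Ccl2 were lower at day 2 and not called at day 5. Ms4a6c had a day 2 minus untreated difference of -1.73 (adjusted p = 4.1e-05) and a day 5 minus untreated difference of -0.50 (adjusted p = 0.218). Adgre1 had differences of -1.20 (adjusted p = 0.000304) and -0.25 (adjusted p = 0.525), and Ccl2 of -2.03 (adjusted p = 0.00221) and 0.20 (adjusted p = 0.847).

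Genes of eosinophils, basophils and mast cells were a small group in which 5 of 12 tested members rose (41.7%, against 12.1% of all features) and 0 fell in limma (against 12.0%), with a median change of 0.21. At an unadjusted p under 0.05 the counts were also 5 and 0, where 2479 of all 6813 features passed in either direction. Without day 5 replicate 2 the count of called rises was 3. Tpsb2 (gene 17229), a mast cell tryptase, had log2 ratios of -0.77, -0.74, -0.99 and -0.58 at day 2 and of 0.50, 0.37 and 0.09 at day 5. The ratios were negative at day 2 and positive at day 5 in every sample. Tpsb2 rose by 1.09 ± 0.15 (SE, adjusted p = 0.000105).

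Cd200r3 (gene 74603), an activating receptor of basophils and mast cells, had log2 ratios of -0.25, -0.50, -0.37 and -0.41 at day 2 and of 0.44, 0.38 and 0.17 at day 5, and rose by 0.71 ± 0.11 (SE, adjusted p = 0.000232). Il4, the cytokine that basophils and T helper cells release, rose by 0.98 (adjusted p = 0.00145). Cpa3, the carboxypeptidase of mast cells and basophils, rose by 1.01 (adjusted p = 0.00886). Without day 5 replicate 2 the change of Cpa3 was 0.76 and was not called (adjusted p = 0.0561). Prg2, Epx and Fcer1a, the granule proteins of eosinophils and the high-affinity IgE receptor chain, had too few values to be tested. The rises of this joint list therefore include neither of these eosinophil granule genes.

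**Figure D3:**
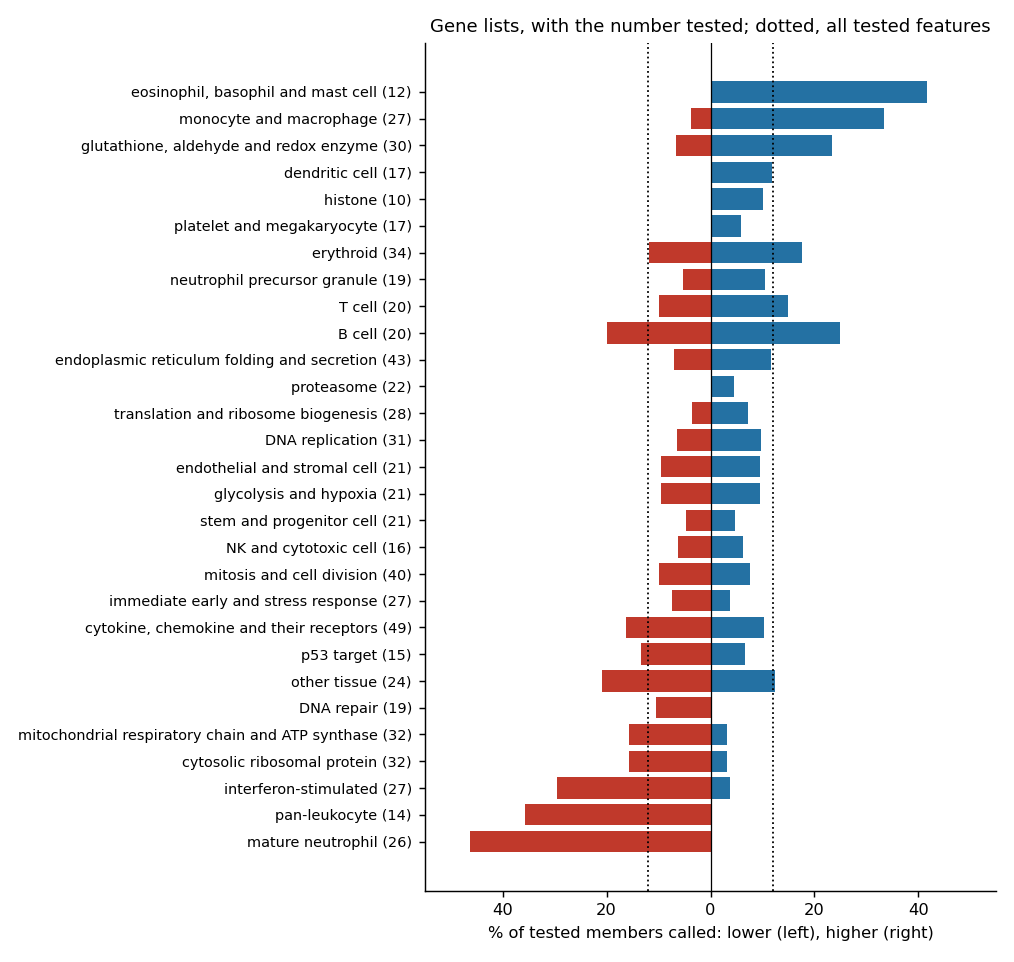
Percent of the tested members of each of 29 gene lists that were called lower (bars to the left) or higher (bars to the right) at day 5, with the number tested in parentheses and the shares of all tested features, 12.0% and 12.1%, as dotted lines. The mature neutrophil, pan-leukocyte and interferon-stimulated lists have the longest bars to the left, while the monocyte list and that of eosinophils, basophils and mast cells reach farthest to the right.

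The largest rise was in Alas2 (gene 11656), the erythroid enzyme of heme synthesis. Its log2 ratios were -1.33, -3.24, -3.05 and -3.30 at day 2 and 0.64, 0.49 and 1.39 at day 5. Day 2 replicate 1 stood apart from the other day 2 samples and was still below all day 5 samples. Alas2 rose by 3.57 ± 0.43 (SE), 11.9-fold (adjusted p = 3.27e-05). It lay 2.83 below untreated at day 2 (day 2 minus untreated -2.83, adjusted p = 0.000244) and was not called at day 5 (0.74, adjusted p = 0.394).

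The erythroid list as a whole did not move one way. Of its 34 tested members, 6 rose (17.6%) and 4 fell (11.8%), close to the 12.1% and 12.0% of all features, and the median change was 0.27. Among the rises, Ncoa4, which delivers ferritin for iron release, rose by 1.97, and Bnip3l, which clears mitochondria from young red cells, by 1.12 (adjusted p = 0.00145 and 3.3e-05). Ube2l6, a ubiquitin-like conjugating enzyme that is also interferon-induced, rose by 2.21, and Ube2c, a conjugating enzyme of mitosis that the erythroid list also holds, by 2.31 (adjusted p = 0.00252 and 0.0101). Ube2c had values in 3 of the 4 day 2 samples.

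Among the erythroid falls besides Slc40a1, Rhag, a membrane protein of red cells, fell by 0.84 (adjusted p = 0.00263). Ppox, a late enzyme of heme synthesis, fell by 0.79 (adjusted p = 0.0218). It lost its call in 4 of 26 alternatives, among them that without day 5 replicate 1 (adjusted p = 0.121). Without that sample the list had 2 falls, and without day 5 replicate 3 it had 6. Hba-a1, the alpha globin gene, had log2 ratios of -1.12, -1.46, -1.16 and -0.94 at day 2 and of -1.01, -1.15 and -0.78 at day 5. These overlapped, with a change of 0.19 ± 0.14 (SE, adjusted p = 0.359), so alpha globin was not called where Alas2 rose.

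The other 11 genes with the largest rises had varied known roles. Syt9, Myf6 and Serpina1a are on the list of genes of other tissues, which was chosen with earlier results of these data known. Of its 24 tested members, 3 rose (12.5%, against 12.1% of all features) and 5 fell (20.8%, against 12.0%), with a median change of -0.15. The 3 that rose are these same genes, so the count of rises is no independent result. Syt9 (gene 60510), a calcium sensor of synaptic and secretory vesicles, had log2 ratios of -1.64, -2.13, -2.32 and -2.54 at day 2 and of 1.61, 1.41 and 1.05 at day 5. It rose by 3.51 ± 0.30 (SE), 11.4-fold (adjusted p = 4.24e-06). Vav2, a signalling protein of the Vav family, rose by 3.1, the muscle transcription factor Myf6 by 3.06, and Anxa4, a calcium-dependent membrane-binding protein, by 3.06.

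Serpina1a, an antiprotease of liver, rose by 2.93, Daw1, an assembly factor of cilia, by 2.87, and the RNA-binding protein Pcbp1 by 2.76. Fut1, a fucosyltransferase, rose by 2.71, the kallikrein Klk1b5 by 2.66, Stimate, a regulator of calcium entry, by 2.64, and Lce1d, a protein of the cornified skin envelope, by 2.62. Adjusted p-values of these 11 genes ran up to 4.95e-05, that of Vav2. Of the 12 genes, 10 were measured by a single probe.

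The choice of these 12 rises fixed that day 2 was low and day 5 high. It did not use the means of day 1 or untreated, though those samples entered the spread behind the calls. Choosing the widest gaps by itself makes other means likely to lie between, so that part is no independent support. In all 12 the means of day 1 and untreated lay between, in the order day 2, day 1, untreated and day 5, and in the 12 largest falls they had the reverse order. Within day 5, replicate 1 was the highest in 11 of the 12 genes, Alas2 being the exception, and replicate 3 the lowest in 9. Within day 2, replicate 1, the sample with the fewest values, was the highest in 11. In the heat map of the largest changes these orders are in the upper 12 genes. In the 12 largest falls, day 2 replicate 1 was the highest in 2 and the lowest in 2, day 2 replicate 4 the highest in 9 and day 5 replicate 2 the highest in 7. The part of the number of values in this pattern was not tested.

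**Figure D4:**
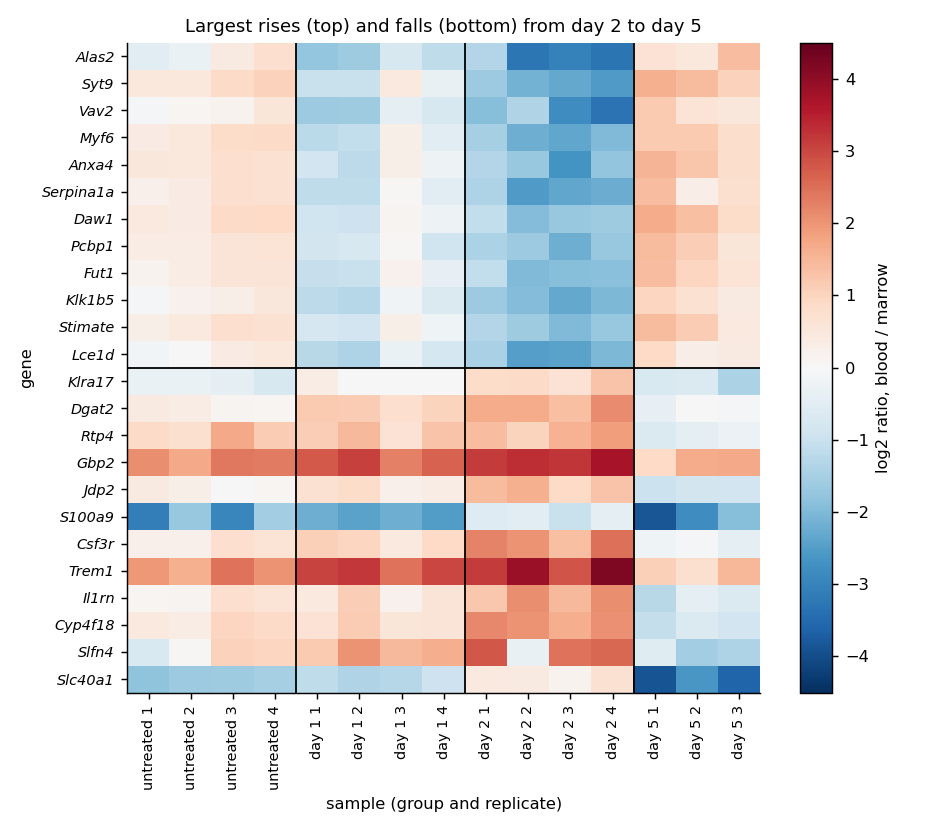
Log2 ratio of blood over marrow (colour, red above 0 and blue below) of the 12 genes that rose most and the 12 that fell most from day 2 to day 5 (rows) in all 15 samples (columns, by group and replicate). The upper 12 genes are at their lowest in day 2 and at their highest in day 5, with day 1 between untreated and day 2, and the lower 12 run the other way.

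The order of the 4 groups was also counted over all called features that had at least 3 untreated and 3 day 1 values. Of 821 features called higher at day 5, 640 (78.0%) had means that rose from day 2 through day 1 and untreated to day 5, and of 805 called lower, 549 (68.2%) had the reverse order. Either order held for 1891 of 6515 tested features (29.0%). Untreated means lay between those of day 2 and day 5 in 762 of 822 features called higher (92.7%) and in 738 of 806 called lower (91.6%), against 53.6% of all features. They lay nearer to day 5 in 71.2% and 60.8% of these called features. Of the 822, 442 were called between day 2 and untreated and 13 between day 5 and untreated, and of the 806, 249 and 44. A call selects features with a wide gap between day 2 and day 5. That selection by itself raises the shares with other means between, so the shares of all features are no like-for-like background.

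Genes of leukocytes at large moved too. Of 14 tested members of the pan-leukocyte list, 5 fell (35.7%, against 12.0%) and 0 rose in limma, with a median change of -0.46. At an unadjusted p under 0.05, 6 were lower and 0 higher, where 2479 of all 6813 features passed in either direction. Without day 5 replicate 1 or 2 the count of called falls was 3. Cd53 (gene 12508), a tetraspanin of leukocytes, had log2 ratios of 2.54, 2.32, 2.24 and 2.66 at day 2 and of 1.11, 1.03 and 2.19 at day 5. Day 5 replicate 3 came close to the day 2 samples. Cd53 fell by 1.00 ± 0.24 (SE, adjusted p = 0.00723), and Hcls1, an actin regulator of blood cells, fell by 0.81 (adjusted p = 0.00197).

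Fyb, an adaptor of T cells and myeloid cells, fell by 1.28 (adjusted p = 0.0194). It lost its call in 3 of 26 alternatives, among them that without day 5 replicate 2 (adjusted p = 0.0857). The 2 probes of Lcp1, an actin-bundling protein, disagreed, with changes of -0.01 and -1.0. These falls stand beside those of the neutrophil list, which at day 5 had sample medians from -0.50 to -0.12 against 0.26 to 0.90 at day 2. The part of the neutrophil falls in them was not tested.

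**Figure D5:**
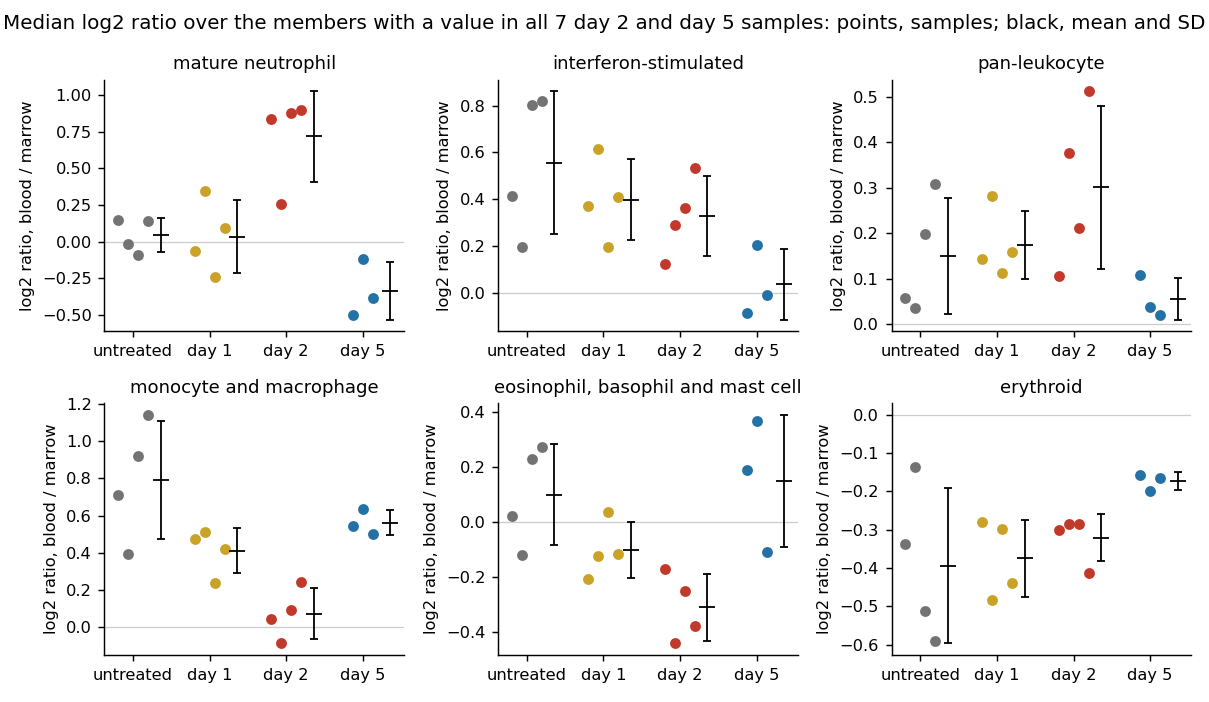
Median log2 ratio over the members of each of 6 lists that had values in all 7 day 2 and day 5 samples (vertical axis) in untreated, day 1, day 2 and day 5 samples, 1 point per sample, with the mean and SD in black. The neutrophil medians run from 0.26 to 0.90 at day 2 and from -0.50 to -0.12 at day 5, and the monocyte medians from -0.09 to 0.24 and from 0.50 to 0.64.

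Lymphocyte lists were mixed. Among 20 tested B cell genes, 5 rose (25.0%, against 12.1% of all features) and 4 fell (20%, against 12.0%), with a median change of -0.12. The rises numbered 1 without day 2 replicate 1 and 2 without day 5 replicate 1 or 2, the falls 1 without day 5 replicate 1, and the rises 3 without day 2 replicate 3. Ms4a1 (gene 12482), which encodes CD20, had log2 ratios of -0.61, -0.41, -0.54 and -0.39 at day 2 and of -1.97, -0.85 and -1.35 at day 5, and fell by 0.90 ± 0.24 (SE, adjusted p = 0.0134). It lost its call in 3 of 26 alternatives, among them that without day 5 replicate 1 (adjusted p = 0.086). Fcmr, an Fc receptor that binds IgM, fell by 0.79 (adjusted p = 0.00323), while Cd72, a coreceptor of B cells, rose by 1.81 (adjusted p = 0.00324). Ms4a1 was below untreated at day 5, with a day 5 minus untreated difference of -1.56 (adjusted p = 0.00367), beside one of -0.66 at day 2 (adjusted p = 0.0665).

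Of 20 tested T cell genes, 3 rose (15%, against 12.1% of all features) and 2 fell (10%, against 12.0%), with a median change of -0.05. The falls numbered 0 without day 5 replicate 1 or 2 and 1 without day 2 replicate 3 or 4 or day 5 replicate 3. Ccr9, a homing receptor for the gut, rose by 1.46 and Izumo1r, a folate receptor family member on regulatory T cells, by 1.75 (adjusted p = 8.77e-06 and 3.7e-05). Cd4 fell by 0.58 (adjusted p = 0.0237) with overlapping groups. It was not called in 5 of 26 alternatives, among them those without day 5 replicate 1 or 2. Of 16 tested NK and cytotoxic cell genes 1 rose and 1 fell (6.25% each, below the shares of all features). Klrd1, the CD94 receptor, had a change of -0.51 (adjusted p = 0.071, not called). Without day 2 replicate 1 its adjusted p was 0.0174. Platelet genes were spread widely within both groups: Pf4, platelet factor 4, had log2 ratios from 0.57 to 3.72 at day 2 and from 1.59 to 3.78 at day 5. Of 17 list members, 1 was called, the rise of F13a1 (5.88%, against 12.1% of all features).

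Redox enzymes changed in both directions. Of 30 tested members of the glutathione, aldehyde and redox list, 7 rose (23.3%, against 12.1% of all features) and 2 fell (6.67%, against 12.0%), and the rises numbered 3 without day 5 replicate 2 and 4 without day 5 replicate 1 or without day 2 replicate 1. Gpx1 (gene 14775), the cytosolic glutathione peroxidase that is abundant in red cells, had log2 ratios of -1.24, -1.74, -1.83 and -1.48 at day 2 and of -0.10, 0.04 and 0.21 at day 5, and rose by 1.62 ± 0.20 (SE, adjusted p = 4.21e-05). Aldh7a1, an aldehyde dehydrogenase, rose by 1.42 (adjusted p = 0.000192). Txn1 (gene 22166), thioredoxin, had ratios of 0.32, 0.38, 0.09 and 0.53 at day 2 and of -1.45, -1.0 and -1.58 at day 5, and fell by 1.67 ± 0.16 (SE, adjusted p = 6.93e-06). Neither gene had overlapping groups.

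Dividing-cell and damage-response lists were near or below the background of all features, 12.1% higher and 12.0% lower. Of 40 tested genes of mitosis and cell division, 3 rose (7.5%) and 4 fell (10%). Of 31 genes of DNA replication 3 rose (9.68%) and 2 fell (6.45%). Of 19 genes of DNA repair 0 rose and 2 fell (10.5%), and the counts were 0 and 4 at an unadjusted p under 0.05 in limma. At that threshold 2479 of all 6813 features passed in either direction. Without day 5 replicate 1 the called falls numbered 1, 0 and 0 in these lists. Mitosis had 2 falls without day 2 replicate 3, DNA repair 4 without day 2 replicate 2, and DNA replication 1 rise without day 2 replicate 3 or 4 or day 5 replicate 2. Nusap1, a spindle protein, rose by 1.90 and the mitotic kinase Plk1 by 1.32 (adjusted p = 0.00197 and 0.00337), while Smc4, a condensin subunit, fell by 0.84 (adjusted p = 0.00017). The mitotic kinase Cdk1 was not called, with a change of -0.56 (adjusted p = 0.475). Of 15 tested p53 targets, 1 rose (6.67%) and 2 fell (13.3%), and 1 fell without day 2 replicate 3 or 4 or day 5 replicate 1 or 2. The riser was Tnfrsf10b, the mouse death receptor for TRAIL, by 1.92 ± 0.21 (SE, adjusted p = 1.4e-05), and Btg2, an antiproliferative gene, fell by 1.28 (adjusted p = 0.00264). Cdkn1a, the p53-induced inhibitor of the cell cycle, was not called, with a change of 0.46 (adjusted p = 0.409).

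Of 27 tested immediate early and stress genes, 1 rose (3.7%, against 12.1% of all features) and 2 fell (7.41%, against 12.0%). Without day 2 replicate 2 or 4, 4 fell, where 824 of 5345 and 757 of 5248 tested features were lower. Rgs2 (gene 19735), a regulator of G protein signalling, had log2 ratios of 2.42, 2.39, 2.40 and 2.52 at day 2 and of 0.91, 0.90 and 0.85 at day 5. It had the tightest groups of the genes named here, and it fell by 1.55 ± 0.12 (SE, adjusted p = 9.03e-07). Its day 2 minus untreated difference was 0.93 (adjusted p = 6.67e-05) and its day 5 minus untreated difference -0.62 (adjusted p = 0.0141). Among secretory pathway genes, 5 of 43 rose (11.6%) and 3 fell (6.98%), near or below the same shares of all features. The falls numbered 12 without day 5 replicate 3, 1 without day 5 replicate 2, 2 without day 5 replicate 1 and 5 without day 2 replicate 3. The rises numbered 3 without day 2 replicate 4 and without day 5 replicate 1 or 2. Over all features, 966 of 6561 were lower without day 5 replicate 3. Pdia4, a disulfide isomerase of the endoplasmic reticulum, rose by 2.07 and Sec61g, a subunit of its protein channel, by 1.75 (adjusted p = 0.000449 and 4.5e-05). Hif1a, the oxygen-regulated transcription factor, fell by 1.20 and Egln3, an enzyme that marks it for degradation, rose by 1.65 (adjusted p = 0.000949 and 2.45e-05). Both are on the glycolysis and hypoxia list, where 2 of 21 tested members rose and 2 fell. These shares, 9.52% each, were below the 12.1% and 12.0% of all features, and the median change was -0.03.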

How the data were processed

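RNA of blood leukocytes and a marrow reference was amplified and hybridised to 2-colour arrays, per the labels' protocols. The authors' deposited table holds log2 ratios, Cy5 over Cy3, for 13443 probes in 30 columns; its scanner, background correction, normalization and filter were not stated, and the base of the logarithm was taken as 2. The platform annotation gave 10032 probes 1 gene symbol, 170 several and 3241 none. Technical replicates were averaged, then probes of a symbol.

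limma 3.58.1 in R 4.3.3 was fitted with 1 mean per group over all 15 samples, with Benjamini-Hochberg adjustment over the 6813 features tested. The procedure was tested on simulated data. The number of arrays limits the precision. The members and gene lists were chosen with earlier results of these data known. Genes named were the 12 largest rises and falls with complete values and no overlap, up to 6 called members of a list in each direction, and list anchor genes; Fpr2 and Sp110 were named after their values were seen. Alternatives covered filters, scaling, the samples fitted, weights, the technical replicates, a replicate block and leaving out each sample. Promoters came from RefSeq, GRCm38.p6.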

Additional observations from a re-analysis of the deposited data

Results flagged for a closer look

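Within the 4 day 2 samples, 84 named genes and 29 list medians were checked for 1 sample far from the other 3, and 11 stood out. Chance gives such a gap in about 1 of 20 groups. Replicate 1 stood apart in Alas2, at -1.33 against -3.30 to -3.05, and in Fut1, at -1.10 against -1.98 to -1.88. Slfn4 was at -0.35 in replicate 2 against 2.43 to 2.80 in the others, and the median of the mature neutrophil list was 0.26 there against 0.83 to 0.90.

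Replicate 3 was low in Adgre1 (-0.40 against -0.12 to -0.10), Cd72 (-2.09 against -1.11 to -1.0), Hcls1 (0.047 against 0.51 to 0.54) and Il4 (-0.68 against -0.17 to -0.07). Replicate 4 was high in Mpeg1 (0.15 against -0.15 to -0.12) and in the median of the cytokine and chemokine list (0.27 against 0.10 to 0.12), and low in the median of the erythroid list (-0.41 against -0.30 to -0.28).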

How the results depend on the processing

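The spread was shared over all 15 samples; estimated from the 7 samples alone, 921 features were called, 534 higher and 387 lower, of which 912 were among the 1642. Leaving out 1 sample gave 1189 (without day 5 replicate 1) to 1854 (without day 5 replicate 3) called features, 630 to 888 higher and 559 to 966 lower. The other alternatives gave 1357 to 1681. Without day 2 replicate 1, 2, 3 or 4, in turn, 6551, 5345, 5404 and 5248 features were tested. Of these, 740, 786, 679 and 752 were called higher and 767, 824, 681 and 757 lower. Without day 5 replicate 1, 2 or 3, in turn, 6344, 6532 and 6561 were tested. Of these, 630, 697 and 888 were called higher and 559, 602 and 966 lower. The list counts given for these runs do not state how many members were still tested. With the replicate block 1472 were called, 769 higher and 703 lower. After each feature's group means were subtracted, same-numbered day 5 and day 2 samples correlated at -0.125, 0.105 and 0.144. Differently numbered pairs ran from -0.15 to 0.124, so the numbers were not taken as pairs. Of 77 called genes named, 63 kept their call in every alternative run and 14 lost it in at least 1, and 0 of 85 named genes reversed. The cause of these losses was not tested. Named genes were picked largely for their calls and size of change, so these counts do not speak for all 1642 calls. Ube2c was tested in 22 of the 26 alternatives. Empty values limit the comparison: 6214 of 13027 features had too few values to be tested, Cd3e, Cd3d, Cd3g and Cd8a of T cells and Ifit1, Isg15, Mx1, Rsad2 and Irf7 of the interferon response among them.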

Other observations

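Values in all 3 day 5 samples and no day 2 sample were seen for 18 of 13027 features, 13 of them with a symbol, and the reverse, values in all 4 day 2 samples and no day 5 sample, for 0. The reverse needs values in 4 samples instead of 3, with day 2 replicate 1 among them. That sample had the fewest values, 5314 to 5471 per column, so the 18 and 0 are not like for like. None of the 13 features with a symbol was on a gene list. Among them, chosen after their values were seen, were Timp1, an inhibitor of matrix metalloproteinases, Mstn, the muscle growth inhibitor myostatin, and Cybrd1, an iron reductase.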
